A study of Drosophila melanogaster with 399 samples.

Results

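The knockdown described here is that of the nuclear receptor gene ERR in whole Drosophila melanogaster embryos of 2 age windows, 10–12 hours and 16–18 hours after egg laying. It comprises 4 of the 399 libraries of the series, 2 replicates per window, chosen by their titles (ERR at 10–12 and at 16–18 hours). Against them stand the 4 libraries of the mCherry control whose title names bsh, ERR and Xbp1, also 2 per window. The series knocked down embryonic transcription factors one at a time by RNA interference and sequenced polyadenylated RNA.

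In the ERR RNAi embryos a short hairpin against ERR was driven by 2 copies of da-Gal4, a Gal4 driver under the promoter of the ubiquitously expressed daughterless gene. The mCherry control embryos carried the same 2 driver copies and a hairpin against mCherry, a fluorescent protein that flies lack. Each embryo had 1 copy of its hairpin, and all crosses were kept at 27 °C. A single hairpin line was used for ERR, so an effect of that line or of its genetic background cannot be told apart from an effect of the ERR transcript. The same control libraries also served the bsh RNAi and Xbp1 RNAi embryos. In RNA from whole embryos, fewer cells of a type and less RNA per cell cannot be told apart.

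The hairpin sequence is shown because every comparison rests on it. Its 21 bases are written as the strand that reads like the ERR transcript, in lower case with no base marked.
ERR hairpin, sense strand: caagtccacacgactagcata

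ERR encodes an orphan nuclear receptor, a DNA-binding protein named for its likeness to the estrogen receptors of vertebrates. Work on ERR mutants of Drosophila has tied it to transcription of the enzymes of glycolysis, the pentose phosphate pathway and lactate formation. Glucose 6-phosphate is the branch point of these routes. It can be broken down to pyruvate, drawn into the pentose phosphate pathway for NADPH and ribose, or stored as glycogen through glucose 1-phosphate and UDP-glucose.

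The 8 libraries held 47414506 to 60769548 reads counted on genes, and 4.725% to 6.768% of reads were not counted on a gene. The latter lay on no gene, were ambiguous between genes or did not align uniquely. A count of 3 in a library corresponded to a normalised read count of 0.0494 to 0.0633 CPM, which is the limit that a count of 0 allows, for counting error only. Of 17612 listed genes, 11665 had enough counts to be tested. Replicates correlated across genes at a Pearson r of 0.9952 and 0.9952 in ERR RNAi embryos (10–12 and 16–18 hours) and of 0.9965 and 0.9793 in control embryos, so the control libraries of 16–18 hours differed most from each other. Levels are CPM, read counts relative to library sizes scaled by TMM (trimmed mean of M-values), and a log2 fold change is ERR RNAi over control. A gene is called lower or higher where edgeR's quasi-likelihood test gave an adjusted p of 0.1 or less and the log2 fold change was 0.5 or more in size. Log2 values are given with their standard error (SE).

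The ERR transcript itself was lower in the knockdown at both ages. ERR lies on 3L from 8183361 to 8186671 (dm6, minus strand), and the gene Uxs and 2 antisense RNAs overlap it on the plus strand. It had 7.34 and 7.06 CPM in ERR RNAi libraries at 10–12 hours, against 21.4 and 22.7 CPM in control libraries. The values at 16–18 hours were 12.8 and 11.9 CPM in ERR RNAi libraries, against 36.0 and 38.9 CPM in control libraries. The groups did not overlap at either age, and the joint log2 fold change was −1.61 (SE 0.0906, adjusted p = 0.000169). The effect was −1.61 at 10–12 hours and −1.61 at 16–18 hours, with a difference between windows of 0.01 (SE 0.19). The transcript was thus lowered to a like extent at both ages while its level in control embryos went on to higher values. In eggs of 0–1.5 hours, before the embryo's own genes are on, ERR was at 27.4 and 25.5 CPM in ERR RNAi libraries and at 29.7 and 24.4 CPM in control libraries, and these overlapped.

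Over both windows jointly, 27 of the 11665 genes were called lower (0.231%) and 4 higher (0.0343%). In all 27 of the lower genes, both ERR RNAi libraries lay below both control libraries at each age, as they did in 2.06% of all genes tested. Such a separation upwards was seen in 3 of the 4 higher genes and in 3.15% of all genes. The 27 comprise ERR, 11 of 12 genes from hexokinase to lactate dehydrogenase (median −2.04), 1 of 10 gut genes that the study had picked out from these libraries (CG15818), and 14 others. Hex-A, the hexokinase gene, was the glycolytic exception at −0.47 (adjusted p = 0.896). The remaining 14 are described next, by role.

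**Figure D1:**
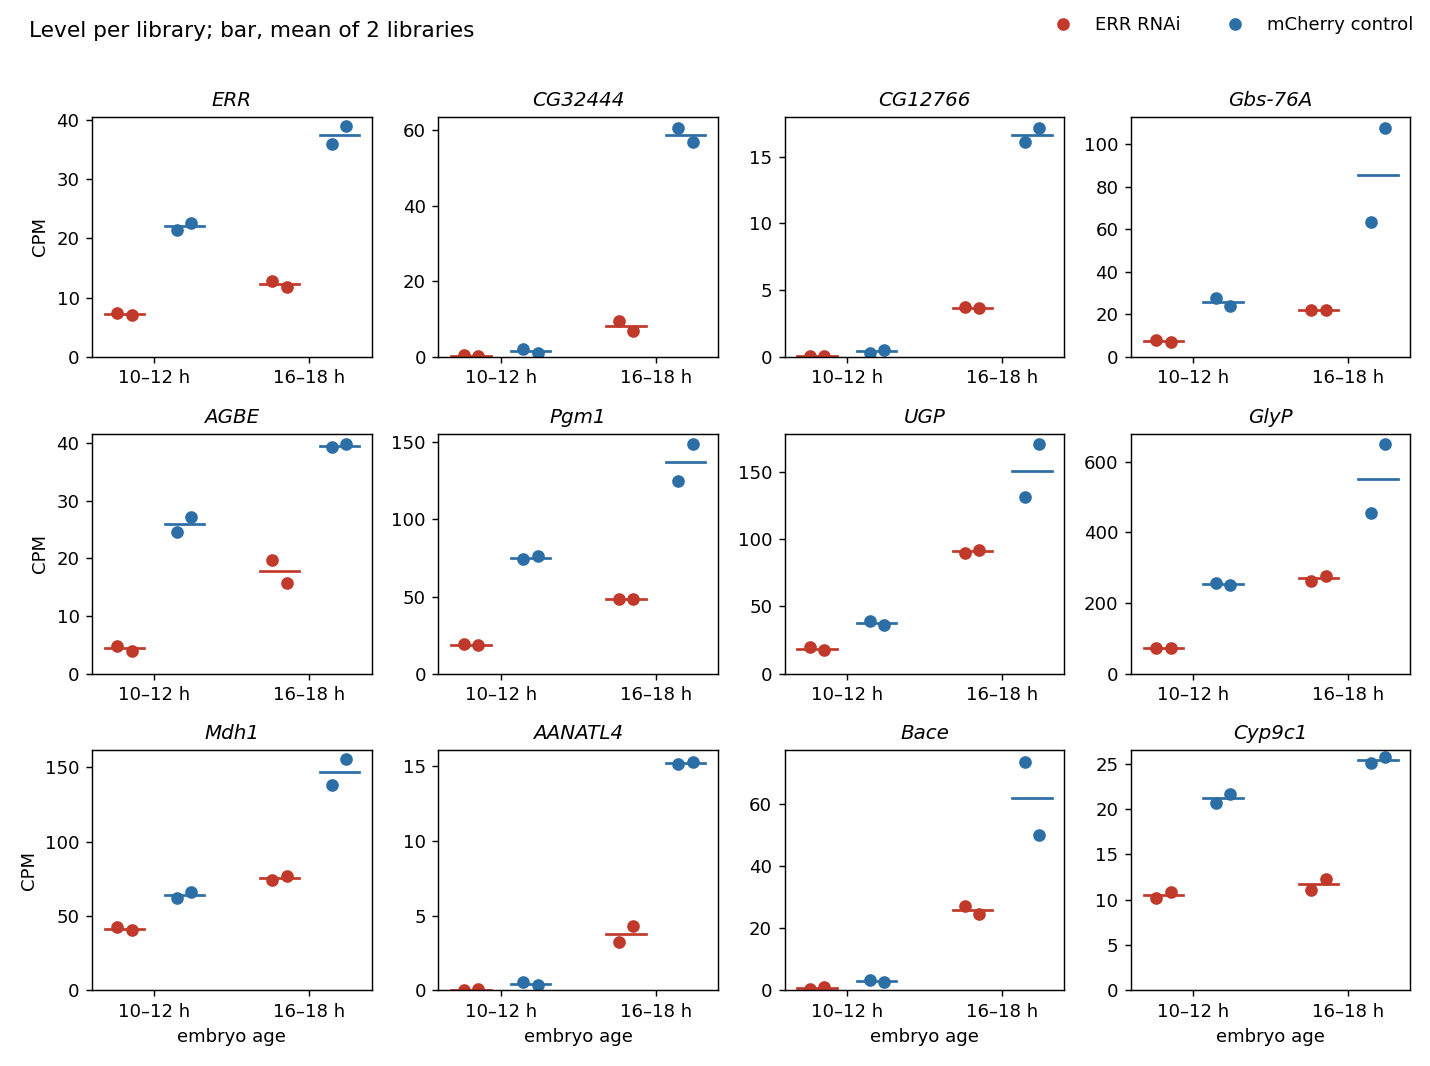
CPM per library of ERR and 11 of the other genes called lower over both windows, for ERR RNAi (red) and mCherry control (blue) embryos at 10–12 and 16–18 hours. Points are libraries and bars are means of 2 libraries. In every panel both red points lie below both blue points at each age.

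Genes of glycogen metabolism formed the largest of these groups. Of 8 glycogen and trehalose genes, 4 were called lower over both windows, none higher, and the median was −1.03, against 0.00 over all genes tested. The study had already reported AGBE, GlyP, Pgm1 and CG9485 as lower in these libraries, and the list was chosen with earlier results known. Its share and median are therefore no independent support. Pgm1, which interconverts glucose 6-phosphate and glucose 1-phosphate, had 19.1 and 18.3 CPM in ERR RNAi libraries at 10–12 hours, against 74.3 and 76.1 CPM in control libraries. The later window had 48.3 and 48.3 CPM in ERR RNAi libraries, against 125 and 149 CPM in control libraries. Its replicates were nearly equal beside the gap between groups, and its log2 fold change was −1.76 (SE 0.128, adjusted p = 0.000345).

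AGBE, the glycogen branching enzyme, had 4.82 and 3.94 CPM in ERR RNAi libraries at 10–12 hours, against 24.6 and 27.3 CPM in control libraries, and 19.8 and 15.7 CPM at 16–18 hours, against 39.3 and 39.9 CPM. Its fall was −2.57 at the earlier and −1.16 at the later age (joint −1.84, SE 0.271, adjusted p = 0.039), and the difference between ages did not pass without the replicate block (1.41, adjusted p = 0.236) but did with it (1.40, adjusted p = 0.043). GlyP, the phosphorylase that releases glucose 1-phosphate from glycogen, had 72.1 and 73.7 CPM in ERR RNAi libraries at 10–12 hours, against 256 and 251 CPM in control libraries. At 16–18 hours it had 262 and 277 CPM in ERR RNAi libraries, against 454 and 650 CPM. The joint change of GlyP was −1.42 (SE 0.182, adjusted p = 0.0168). UGP, which makes UDP-glucose, had the smallest fall of the 4, −0.87 (SE 0.12, adjusted p = 0.0257), with 19.6 and 17.5 CPM in ERR RNAi libraries against 39.4 and 35.8 CPM in control libraries at 10–12 hours. Synthesis and breakdown genes of glycogen were thus both among those called lower.

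Gbs-76A, a glycogen-binding subunit of protein phosphatase 1, was outside that list and had a joint change of −1.87 (SE 0.164, adjusted p = 0.00125). It had 7.78 and 7.17 CPM in ERR RNAi libraries at 10–12 hours, against 27.7 and 23.7 CPM in control libraries, and 22.1 and 22.1 CPM at 16–18 hours, against 63.5 and 108 CPM. CG9485, the glycogen debranching enzyme, was called lower at 16–18 hours, with 28.7 and 23.8 CPM in ERR RNAi libraries against 84.2 and 95.4 CPM in control libraries (−1.77, SE 0.16, adjusted p = 0.00484). Its change at 10–12 hours was −0.62 (adjusted p = 0.182, or 0.0892 with the replicate block), and the difference between ages passed with the block (adjusted p = 0.0532) and not without it (adjusted p = 0.275). The synthase gene GlyS had −0.65 over both windows and did not pass (adjusted p = 0.229). Of the trehalose genes, Tps1 had 0.05 and Treh −0.09.

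Genes that act on free sugars held the 2 largest decreases outside glycolysis among the genes called lower. Both had been reported by the study as lower at 16–18 hours in these libraries. CG32444, a putative aldose 1-epimerase that converts sugar anomers, had 9.48 and 6.76 CPM in ERR RNAi libraries at 16–18 hours, against 60.5 and 57.0 CPM in control libraries. The earlier window had 0.41 and 0.30 CPM in ERR RNAi libraries, against 2.06 and 1.14 CPM in control libraries. The fall was −2.62 (SE 0.24, adjusted p = 0.00146). CG12766, of the aldose reductase family, had 3.72 and 3.62 CPM in ERR RNAi libraries at 16–18 hours, against 16.1 and 17.1 CPM in control libraries, and 4 counts in the 2 ERR RNAi libraries of 10–12 hours, against 48 in the control libraries. Its joint change was −2.39 (SE 0.243, adjusted p = 0.00328). Among the 9 polyol and aldose reductase genes CG12766 alone was called over both windows (median −0.17). The sorbitol dehydrogenase Sodh-1 was called lower at 16–18 hours (−1.24, adjusted p = 0.0717), whereas its paralog Sodh-2 had −0.15 there.

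Mdh1, the cytosolic malate dehydrogenase of the malate-aspartate shuttle, fell by 0.79 on the log2 scale (SE 0.105, adjusted p = 0.0204). It had 42.6 and 40.4 CPM in ERR RNAi libraries at 10–12 hours, against 62.1 and 66.5 CPM in control libraries, and 74.1 and 77.2 CPM at 16–18 hours, against 138 and 155.8 CPM. Its mitochondrial counterpart Mdh2 had −0.18. In the list of 7 NADH shuttle genes tested, Mdh1 was the only one called over both windows. Got2, the mitochondrial aspartate aminotransferase of the same shuttle, was called lower at 10–12 hours (−1.12, adjusted p = 0.0315) and had −0.33 at 16–18 hours.

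The 6 other genes called lower have no shared role that is known. AANATL4, of the arylalkylamine N-acetyltransferase family, had 3.21 and 4.28 CPM in ERR RNAi libraries at 16–18 hours, against 15.2 and 15.3 CPM in control libraries, and 0.00 and 0.09 CPM at 10–12 hours, against 0.56 and 0.34 CPM. Its change was −2.25 (SE 0.353, adjusted p = 0.0547), and in Xbp1 RNAi embryos of 16–18 hours it was lower still, at 0.44 and 0.36 CPM. Bace, the fly beta-secretase homolog and an aspartic protease, had 27.2 and 24.5 CPM in ERR RNAi libraries at 16–18 hours, against 73.6 and 49.9 CPM in control libraries (joint −1.60, SE 0.246, adjusted p = 0.0486). Bace lies within Dh31 on the same strand, so their reads may not be separable. The same holds for MFS3, which overlaps the RNA gene lncRNA:CR45717 on its own strand. Pgm1, UGP, CG32444, Cyp9c1, Cyp4p2 and Had1 each overlap a gene on the opposite strand. Whether counting used strand is not given in the sources used here.

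The cytochrome P450 genes Cyp9c1 and Cyp4p2 were also lower. Cyp9c1 had 10.2 and 10.9 CPM in ERR RNAi libraries at 10–12 hours, against 20.7 and 21.6 CPM in control libraries, and 11.1 and 12.3 CPM at 16–18 hours, against 25.1 and 25.7 CPM (−1.06, SE 0.0934, adjusted p = 0.00125). Against bsh RNAi embryos in place of the control, the difference for Cyp9c1 was −0.51 and did not pass (adjusted p = 0.11), whereas that for Cyp4p2 was larger, −1.66 against −0.90 with the control. MFS3, a transporter of the major facilitator superfamily, had 43.0 and 47.6 CPM in ERR RNAi libraries at 10–12 hours, against 90.1 and 98.5 CPM in control libraries (−0.9985, SE 0.16, adjusted p = 0.0581). Had1, by its name a beta-hydroxy acid dehydrogenase, had the smallest change of the 27 (−0.75, SE 0.121, adjusted p = 0.0581).

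The calls differed in how far they rested on single libraries. When each of the 8 libraries was left out in turn, ERR, CG32444, CG12766, Gbs-76A, Pgm1 and Cyp9c1 passed in all 8 fits, as did 10 of the 11 glycolytic genes and CG15818. GlyP was lost without 10–12 hour ERR RNAi replicate 2 (adjusted p = 0.1). AGBE, UGP, Mdh1 and Cyp4p2 were lost in 4 fits each, AANATL4, Bace and Had1 in 5 and MFS3 in 6, with adjusted p up to 0.426 for Had1, 0.347 for AANATL4 and 0.294 for MFS3. The fit without 10–12 hour ERR RNAi replicate 2 called the fewest, 17 of the 27, and the fit without 16–18 hour control replicate 1 called 26 of the 27 and 43 lower genes in all.

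Few genes were higher in the knockdown over both windows. CG2064, of the short-chain dehydrogenase family, had 13.1 and 14.1 CPM in ERR RNAi libraries at 10–12 hours, against 8.41 and 8.17 CPM in control libraries, and 29.4 and 34.5 CPM at 16–18 hours, against 10.6 and 14.4 CPM (1.04, SE 0.164, adjusted p = 0.0558). The CG2064 call was lost in 6 of the 8 fits that left out a library, and against bsh RNAi libraries its difference was 0.27 (adjusted p = 0.34). The cadherin gene Cad89D had 71.6 and 62.9 CPM in ERR RNAi libraries at 10–12 hours, against 49.7 and 44.8 CPM in control libraries (0.62, SE 0.105, adjusted p = 0.0849). With the replicate number as a block the adjusted p for Cad89D was 0.114, and it was lost in all 8 fits that left out a library.

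The other 2 increases lie outside the rule for named genes and were chosen after their values were seen. CG17107 had 15.6 and 20.3 CPM in ERR RNAi libraries at 16–18 hours, against 3.45 and 4.36 CPM in control libraries (joint 2.07, SE 0.293, adjusted p = 0.0299). The CG17107 call was lost in 4 of the 8 fits that left out a library. At 10–12 hours its libraries overlapped at 0.05 and 0.15 CPM in ERR RNAi and 0.02 and 0.07 CPM in control embryos. CG42753 had 43 counts in ERR RNAi libraries of 10–12 hours and 1 in control libraries, and 59 against 0 at 16–18 hours, at least 10.3-fold higher there when the control is set to 3 counts per library. In Xbp1 RNAi libraries it was at 0.42 and 0.44 CPM at 10–12 hours, within reach of the 0.36 and 0.43 CPM of ERR RNAi libraries. Against bsh and Xbp1 RNAi libraries together, none of the 4 genes was called higher.

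**Figure D2:**
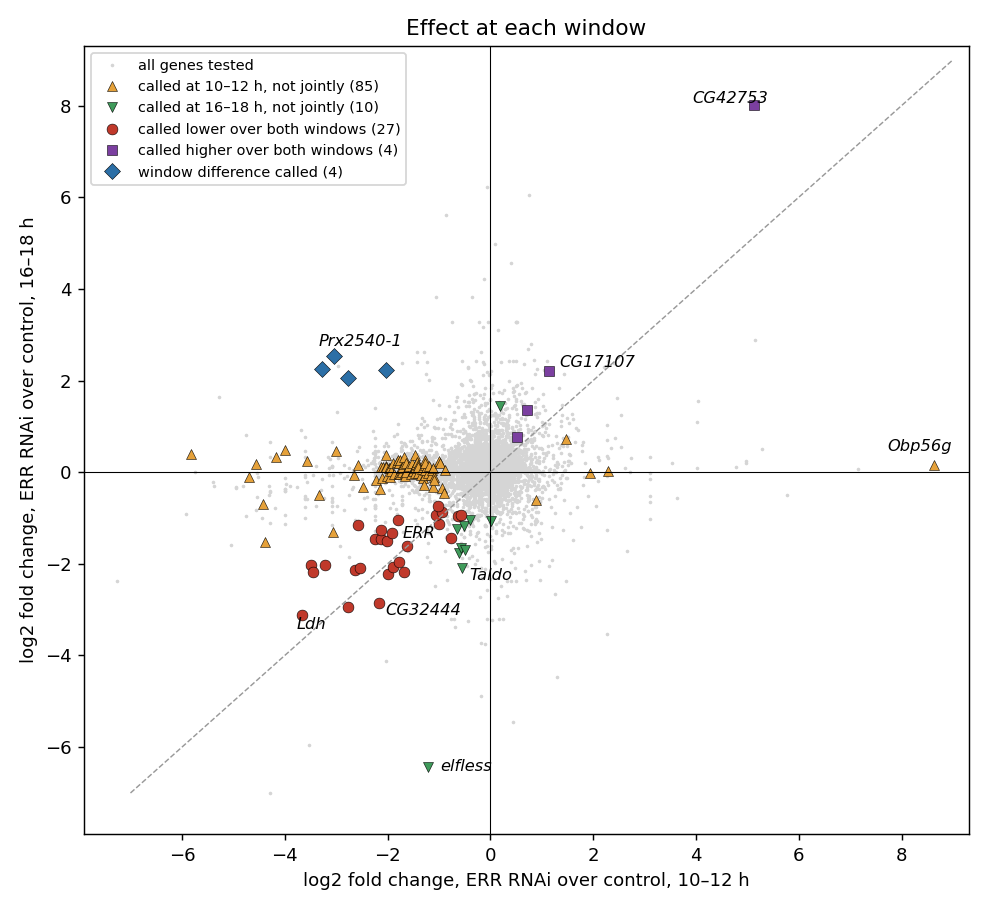
Log2 fold change of ERR RNAi over control at 10–12 hours (x axis) and at 16–18 hours (y axis) for the 11665 genes tested, with called genes marked by class and the dashed line showing equal effects. The 27 genes called lower over both windows lie below 0 at both ages. Some of them lie off that line, such as Tpi (−3.48 and −2.02) and AGBE (−2.57 and −1.16). The 4 genes with a called window difference lie at upper left, and the genes called at 10–12 hours, not jointly, spread along the x axis with 16–18 hour values near 0.

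Whether the effect of the knockdown changed with age was tested for each gene by an interaction term, the effect at 16–18 hours minus that at 10–12 hours. No gene was called for a negative difference (0%), and 4 were called for a positive one (0.0343%). With replicate numbers as a block, 257 genes were called for a window difference, these 4 among them. All 4 lie side by side within 10418718 to 10427915 on 2R: the peroxiredoxin genes Prx2540-1, Prx2540-2 and CG12896, and CG11825, which lies between them. CG33474 lies within CG11825 on the opposite strand. It was called lower at 10–12 hours (−1.677, adjusted p = 0.0641) but not for the window difference (2.01, adjusted p = 0.258). Peroxiredoxins reduce hydrogen peroxide. These 3 are close paralogs, and reads that fit several of them may have been left out of the counts.

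Prx2540-2 had 13.4 and 18.0 CPM in ERR RNAi libraries at 10–12 hours, against 109 and 105 CPM in control libraries. At 16–18 hours it had 379 and 503 CPM in ERR RNAi libraries, against 109 and 102 CPM in control libraries. The knockdown was thus lower than the control at the first age and higher at the second, and the difference between effects was 4.83 (SE 0.297, adjusted p = 0.000848). For Prx2540-2 the control had like values at both ages, which was not so for the other 3 genes, where the control was lower at the later age. Prx2540-1 had 4.99 and 4.89 CPM in ERR RNAi libraries at 10–12 hours, against 39.4 and 41.6 CPM in control libraries, and 72.0 and 111 CPM at 16–18 hours, against 17.6 and 13.9 CPM. CG12896 had 3.70 and 4.14 CPM in ERR RNAi libraries at the earlier age, against 38.3 and 37.3 CPM in control libraries, and 66.8 and 98.6 CPM at the later, against 20.7 and 14.0 CPM. CG11825 had 15.2 and 14.8 CPM in ERR RNAi libraries at the earlier age, against 61.6 and 60.0 CPM in control libraries, and 96.3 and 144 CPM at the later, against 27.3 and 23.7 CPM. All 4 genes thus shared the turn in direction. The study had already reported this turn for the same 4 genes in these libraries, with smaller log2 increases at 16–18 hours than those found here. On the log2 scale, Prx2540-1 had −3.04 at 10–12 hours and 2.54 at 16–18 hours (difference 5.57, SE 0.325), CG12896 −3.27 and 2.26 (5.52, SE 0.356), and CG11825 −2.02 and 2.24 (4.26, SE 0.29). All 4 differences passed in each of the 15 alternative fits, the largest adjusted p being 0.0543.

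The position of the knockdown and its control among other libraries differed somewhat between the 4 genes. At 10–12 hours, 1 of 34 other libraries lay below both ERR RNAi libraries for Prx2540-2 and CG12896, 4 for Prx2540-1 and 9 for CG11825, and between 30 (CG11825) and 33 (CG12896) lay below both control libraries. At 16–18 hours, 108 or 113 of 128 lay below both ERR RNAi libraries, and between 15 (Prx2540-2) and 22 (CG11825) below both control libraries. For Prx2540-2 the bsh RNAi libraries, which share that control, had 81.8 and 43.4 CPM at 10–12 hours and 261 and 185 CPM at 16–18 hours. With bsh RNAi in place of the control, the differences between effects were 3.53 for Prx2540-1, 3.06 for Prx2540-2, 3.43 for CG12896 and 2.16 for CG11825. The part of the control libraries in the result was not tested beyond these values.

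**Figure D3:**
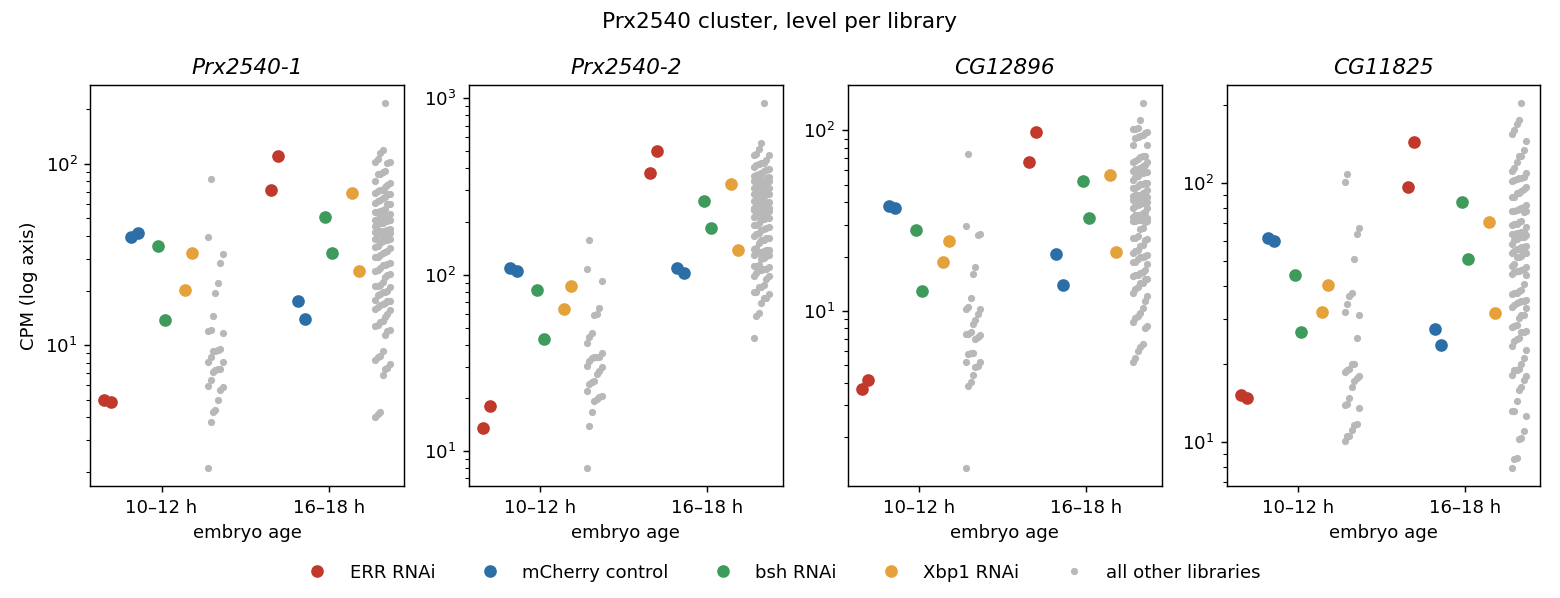
CPM per library on a log axis for the 4 genes of the Prx2540 cluster at 10–12 and 16–18 hours, by group, with all other libraries of the same age in grey. ERR RNAi libraries (red) lie below the control (blue) at 10–12 hours and above it at 16–18 hours in each panel.

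Taken at each age alone, the knockdown gave 105 lower genes at 10–12 hours (0.9%) and 5 higher (0.0429%), and 28 lower genes at 16–18 hours (0.24%) and 7 higher (0.06%). With the replicate block, 386 were lower and 22 higher at 10–12 hours, and 39 lower and 21 higher at 16–18 hours. Of the 27 jointly lower genes, 21 were among those called at 10–12 hours and 19 among those at 16–18 hours. Single libraries moved these counts further. Of the 105 lower genes of 10–12 hours, 16 were kept without ERR RNAi replicate 1 of that age, 18 without control replicate 1 and 29 without control replicate 2. Without 16–18 hour control replicate 1, 432 genes were lower at 10–12 hours and 86 at 16–18 hours, and 127 were higher at 16–18 hours. Without 16–18 hour ERR RNAi replicate 1, 9 of the 28 lower genes of that age were kept. The genes named next were called at a single age and were chosen after their values were seen.

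In the later window, 9 genes were called lower that the joint fit had not called. They include 3 of the 7 pentose phosphate genes tested, of which the study had already reported Taldo as lower at this age. Taldo, transaldolase, had 34.2 and 36.5 CPM in ERR RNAi libraries, against 127 and 175 CPM in control libraries (−2.10, SE 0.184, adjusted p = 0.00484). CG8036, a transketolase, had 84.5 and 101 CPM in ERR RNAi libraries, against 210 and 396 CPM in control libraries (−1.71, SE 0.285, adjusted p = 0.0965). Zw, the glucose 6-phosphate dehydrogenase that opens the oxidative branch, had 18.4 and 17.8 CPM in ERR RNAi libraries, against 32.4 and 43.0 CPM in control libraries (−1.06, SE 0.163, adjusted p = 0.0576). Without single libraries the Taldo call was kept in all 8 fits, whereas that of Zw was lost in 5 and that of CG8036 in 6.

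At 10–12 hours the same 3 genes had −0.55, −0.49 and 0.01, and none was called. All 7 members of the pathway had a negative joint value (median −0.52), and none was called jointly. Taldo had 44.7 and 49.3 CPM in ERR RNAi libraries at 10–12 hours, against 66.5 and 71.4 CPM in control libraries, so it was lower at the later age in ERR RNAi embryos and higher at the later age in control embryos. The difference between ages for Taldo was −1.55 (adjusted p = 0.225) without the replicate block and −1.53 (adjusted p = 0.0349) with it, and that for Zw was −1.06 (adjusted p = 0.068) with it. PhKgamma, the catalytic subunit of phosphorylase kinase, was likewise called lower at 16–18 hours (−1.05, adjusted p = 0.0429).

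Among genes called at 16–18 hours, elfless had the lowest fitted value (adjusted p = 0.00763), with 3 counts in ERR RNAi libraries against 294 in control libraries, 93.6-fold lower (counting interval 31.7 to 456). The control libraries had 2.64 and 3.14 CPM, whereas bsh RNAi libraries had 0.04 and 0.15, Xbp1 RNAi libraries 0.00 and 0.02, and the median of 128 other libraries was 0.06 CPM. Of those 128, 19 lay above the lower of the control libraries, up to 8.21 CPM. Sb, a membrane serine protease, was called higher at 16–18 hours (1.44, adjusted p = 0.0375), and had 0.12 against bsh and Xbp1 RNAi libraries together. The Sb call was lost in 7 of the 8 fits that left out a library.

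In the earlier window, 80 genes were called lower that were called neither jointly nor for the window difference. Their median change was −1.68 at 10–12 hours and 0.06 at 16–18 hours. Among them were the cuticle gene Cpr49Ae (−1.27), the mucin gene Mur18B (−1.58), the chitinase-like Idgf1 (−1.75) and 7 of 10 gut genes. The 10 gut genes had a median of −1.29 at 10–12 hours and −0.07 at 16–18 hours. The study had picked them out as lower at 10–12 hours in these same libraries and reported them little changed later. Their share and medians are therefore no independent result. Ilp2, an insulin-like peptide gene, had 1 count in ERR RNAi libraries and 33 in control libraries, 32.2-fold lower (counting interval 5.39 to 1310), and at 16–18 hours 7.41 and 7.82 CPM in ERR RNAi libraries against 6.05 and 10.3 CPM in control libraries. Its level at 10–12 hours was low throughout: 0.32 and 0.27 CPM in control, 0.23 and 0.03 in bsh RNAi and 0.18 and 0.14 in Xbp1 RNAi libraries. The median of 34 other libraries was 0.16 CPM, and Ilp2 was not called against bsh RNAi libraries. The Ilp2 call was lost in 5 of the 8 fits that left out a library.

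Most of the 80 are genes whose level rises late. In 6 other control sets, with 12 libraries at each age, their median log2 ratio of 16–18 over 10–12 hours was 4.51, and 74 of the 80 (92.5%) rose at least 4-fold there, against 12.7% of all genes tested. Of the 27 jointly lower genes, 10 (37.0%) did. All 1478 genes with such a rise had a median effect of −0.47 at 10–12 hours and 0.04 at 16–18 hours. In the median log2 CPM of these 1478 genes, ERR RNAi libraries stood at 1.05 and 1.27 and control libraries at 1.67 and 1.63, with 2 and 5 of the 37 other libraries below the ERR RNAi libraries and 21 and 18 below the control libraries. The part of a difference in embryo age or pace in the 10–12 hour calls was not tested. The 371 genes that fell at least 4-fold between ages had a median effect of 0.08 at 10–12 hours and 0.30 at 16–18 hours.

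**Figure D4:**
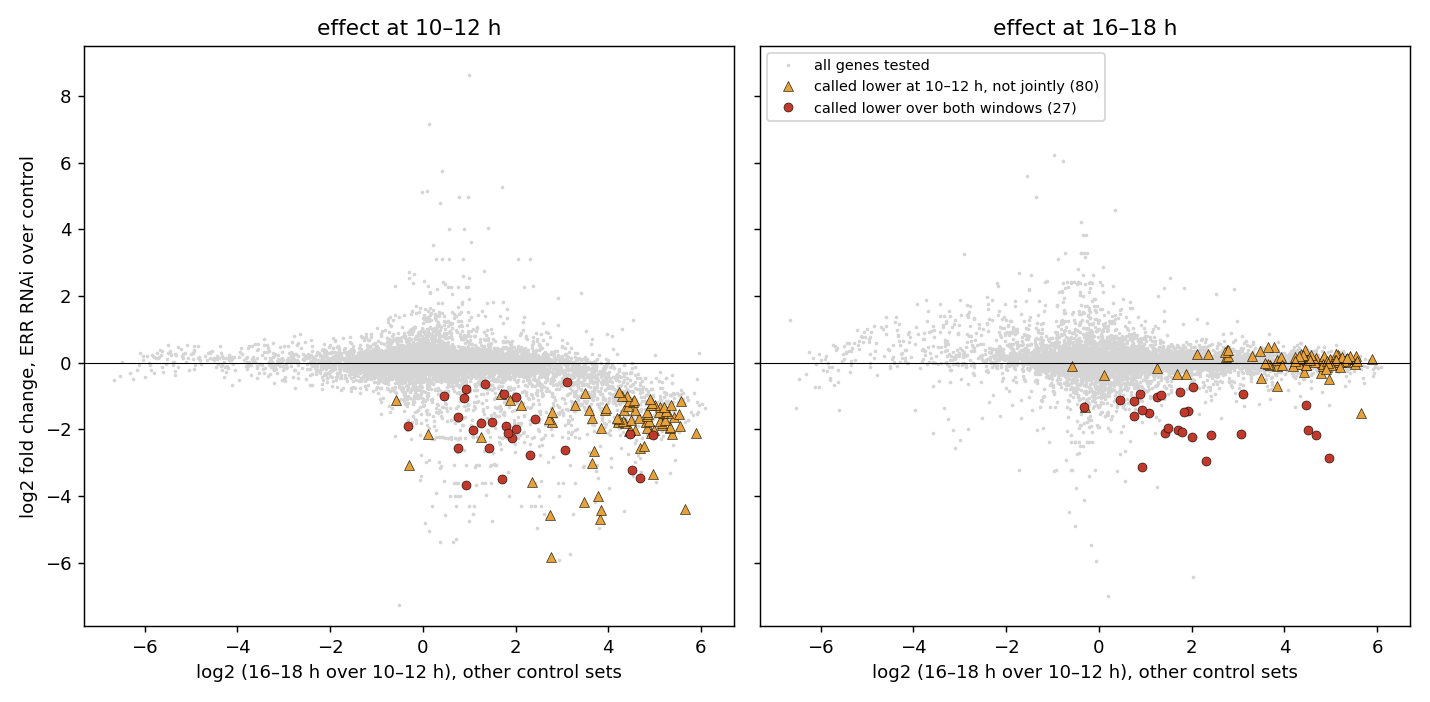
Effect of ERR RNAi at 10–12 hours (left) and 16–18 hours (right) on the log2 scale (y axis), against the log2 ratio of 16–18 over 10–12 hours in 6 other control sets (x axis), for all 11665 genes tested. The 80 genes called lower at 10–12 hours, not jointly, gather at the right of the left panel and lie near 0 in the right panel, whereas the 27 jointly lower genes (red) lie below 0 in both.

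The higher genes of 10–12 hours were CG33229, Pask, CG43110, NT5E-2 and Obp56g. Obp56g, an odorant-binding protein gene, had 103 counts in ERR RNAi libraries and 0 in control libraries, at least 17.6-fold higher when the control is set to 3 counts per library. At 16–18 hours it had 0.34 and 0.51 CPM in ERR RNAi libraries, against 0.40 and 0.36 CPM in control libraries, and these overlapped. The Obp56g call was lost in 3 of the 8 fits that left out a library. None of the 5 was called higher over both windows.

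Many other gene groups held no joint call. The tricarboxylic acid cycle genes (16 tested) had a median of 0.02 and ranged from −0.12 to 0.08. The 32 genes of complex I had a median of −0.04, the 31 of complexes III to V −0.07 and the 13 of the mitochondrial genome −0.05 (0.16 at 10–12 hours and −0.25 at 16–18 hours). Complex I and complexes III to V had medians of −0.21 and −0.22 at 10–12 hours and of 0.10 and 0.08 at 16–18 hours, with no gene called at either age. Fatty acid oxidation (15 genes) had a median of 0.00, fatty acid synthesis (11) 0.07, the hypoxia response (11) 0.01, and the 19 other nuclear receptors 0.04. Pyruvate fate and anaplerosis (13 genes) had a median of −0.06 and sugar transporters (5) −0.001. The lists with a joint call were glycolysis, glycogen and trehalose, polyol and aldose reductase, NADH shuttles and the gut genes.

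**Figure D5:**
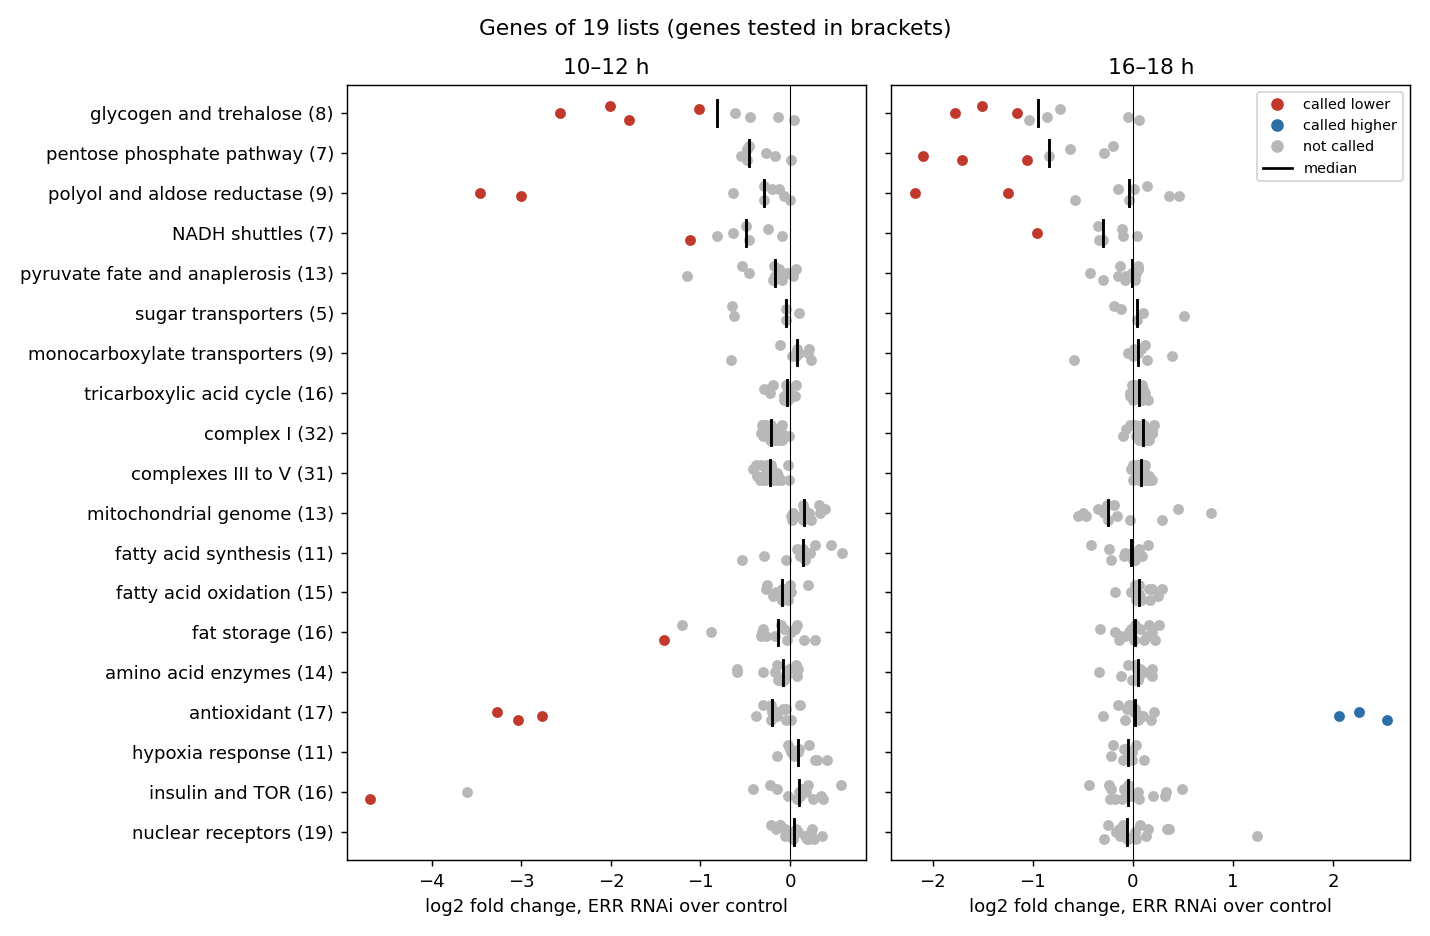
Log2 fold change of ERR RNAi over control for the genes of 19 lists at 10–12 hours (left) and 16–18 hours (right), each point a gene, with the list's median as a black bar. Called genes stand out in the glycogen and trehalose, pentose phosphate, polyol, NADH shuttle and antioxidant lists (the last through the Prx2540 cluster), with 1 gene each in fat storage and insulin and TOR at 10–12 hours, while the mitochondrial lists lie close to 0.

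Markers of tissues and stages were read in the same fit. No joint call was made among the lists for sarcomere (29 genes, median 0.02), mature neuron (16, 0.08), glia (9, 0.05), hemocyte (10, 0.10), trachea (6, 0.12), Malpighian tubule (8, −0.06), fat body (7, 0.17) or late cuticle (19, −0.09). Joint medians can hide opposite shifts. At 10–12 and 16–18 hours the mature neuron list had medians of 0.27 and −0.08, and late cuticle −0.461 and 0.255. Those over all genes tested were −0.023 and 0.033. In these lists only the sarcomere gene Zasp66 was called at either age without the replicate block, lower at 10–12 hours (−1.27, adjusted p = 0.0795). The largest shift of a median without a call was that of 11 early zygotic genes (−1.11). Their summed level was 244 and 176 CPM in ERR RNAi libraries at 10–12 hours, against 212 and 185 CPM in control libraries, and 242 and 197 CPM at 16–18 hours, against 262 and 145 CPM, so the groups overlapped at both ages. The eye and body colour genes w, v and y, which mark the stocks, had 0.04, 0.40 and 0.03.

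Among all libraries of the same age, whatever was targeted, the ERR RNAi libraries stood at the low end for many of the 27 genes but not for all. Counted here are other libraries below the higher of the ERR RNAi libraries, not below both. The 27 genes were called for low values in these same ERR RNAi libraries, so low ranks were partly set in advance. The same count was not made over all genes tested, so how unusual these ranks are cannot be read from them. For 8 genes no other library of 34 lay below it at 10–12 hours, and for 4 no other of 128 did so at 16–18 hours. Ldh, Gapdh1 and Ald1 were lowest at both ages. The most libraries below the higher ERR RNAi library were found for Cyp4p2 (9 at 10–12 hours and 26 at 16–18 hours), followed by AANATL4 (7 and 22) and CG15818 (4 and 15). Leaving aside the caup RNAi libraries, no other library lay below the higher ERR RNAi library for 23 genes at 10–12 hours and for 15 at 16–18 hours. In caup RNAi libraries ERR was at 7.03 and 2.16 CPM at 10–12 hours, against 24.8 and 22.3 CPM in their own control, and at 14.4 and 5.88 CPM at 16–18 hours, against 41.8 and 40.0 CPM. Both caup RNAi libraries lay below both of their controls at each age for 24 of the 27 genes, and for 52.2% of all genes tested.

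Many of the 27 genes were also present in eggs. At 0–1.5 hours AGBE had 212 and 184 CPM in ERR RNAi libraries and 198 and 199 CPM in control libraries, Pgm1 186 and 162 against 170 and 187 CPM, and UGP 242 and 233 against 247 and 237 CPM. By contrast, CG12766, AANATL4, Bace and Cyp4p2 were at or below 0.33 CPM in each of these 4 libraries. The genes called lower thus included those with a large maternal supply and those with almost none. They lay on the arms 2L, 2R and 3L (7 each, 25.9%), 3R (4, 14.8%) and X (2, 7.41%). Of all genes tested, 17.4% lay on 2L, 20.4% on 2R, 20.1% on 3L, 24.8% on 3R and 16.1% on X. With so few called genes, a difference between arms was not tested.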

How the data were processed

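Whole embryos were collected and polyadenylated RNA was sequenced with a stranded kit. The authors aligned reads to dm6 (Release 6) with STAR 2.7.3a, allowing up to 20 multiple alignments. The deposited values are raw counts per gene, made with HTSeq 0.12.4 per the submitters' processing notes, and the strand setting is not given in the sources used here. From these counts edgeR 4.0.16 was run in R 4.3.3 with TMM scaling, filterByExpr at a minimum count of 10, the design window + knockdown (joint effect) and window × knockdown (each age, and their difference), and Benjamini-Hochberg adjustment over 11665 genes. The study calls the 2 libraries of a group biological replicates, with no statement that they came from separate crosses, and p-values measure the spread between these libraries only.

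Replicate numbers come from the titles. Deviations of same-numbered libraries from their group means correlated across genes at 0.13 (10–12 hours) and 0.653 (16–18 hours). Each value rests on a single replicate difference per group, so it cannot show whether the numbers mark pairs. A fit with the numbers as a block was run as an alternative, and calls made only with it depend on that assumption. Named genes were ERR, up to 15 called decreases and 15 increases outside the glycolysis and gut lists (mean of at least 2 CPM, libraries apart at each age), up to 8 window differences per direction, and called members of 45 lists. The members and lists were chosen with earlier results of these data known. On counts simulated for the joint fit, 78 of 100 2-fold and 93 of 100 4-fold changes were found among 11557 genes, with 14 unchanged genes called, and for the window difference 17 and 72 among 11569, with 20 unchanged genes called. Gene positions are from Ensembl 115. DESeq2 1.42.0, RLE size factors, no filter, other reference libraries, other thresholds and each library left out were the alternatives.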

Additional observations from a re-analysis of the deposited data

Results flagged for a closer look

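The 4 genes of the Prx2540 cluster are listed because the effect of ERR RNAi at 16–18 hours differed from that at 10–12 hours by the interaction test of the edgeR fit. Their change of direction in these libraries had already been reported by the study. The difference was 5.574 for Prx2540-1, 5.524 for CG12896, 4.834 for Prx2540-2 and 4.258 for CG11825 on the log2 scale, and both ERR RNAi libraries moved in the stated direction at each age. With groups of 2 libraries no test for a single far sample could be made.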

How the results depend on the processing

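Of 43 named results, 22 held under every alternative run, and over 643 single values 540 kept their call, 102 lost it and 1 reversed. Cad89D reversed, to −0.15 with bsh and Xbp1 RNAi as the reference. The other thresholds were not among the alternatives behind these values. The counts of calls moved more than the genes. Genes called lower over both windows (27) numbered 56 with DESeq2, 97 against bsh RNAi and 111 against bsh and Xbp1 RNAi, and those called higher (4) numbered 9 with no filter on low counts, 27 with DESeq2, 8 in a fit of 16 libraries, 31 against bsh RNAi, 17 against bsh and Xbp1 RNAi and 2 at an adjusted p of 0.05. Of the 27, 25 to 27 were kept under these settings other than the p threshold, which kept 24. A log2 fold change of at least 1 in size kept 22 and lost Cyp4p2, Had1, MFS3, Mdh1 and UGP. Window differences (4) numbered 48 with no filter, 205 with DESeq2, 86 in the fit of 16 libraries, 675 against bsh RNAi, 201 against bsh and Xbp1 RNAi and 257 with the replicate block, and the 4 were kept in each. At 10–12 hours, lower genes (105) numbered 289, 359, 321, 505, 402 and 386 under those settings and 37 at an adjusted p of 0.05, and higher genes (5) numbered 11, 20, 17, 110, 11 and 22, and 2 at an adjusted p of 0.05. At 16–18 hours, lower genes (28) numbered 47 with DESeq2, 53 in the fit of 16 libraries, 212 against bsh RNAi and 142 against bsh and Xbp1 RNAi, and higher genes (7) numbered 42 with DESeq2, 873 against bsh RNAi, 805 against bsh and Xbp1 RNAi and 21 with the block. Called list members outside glycolysis and gut (6) numbered 15 with DESeq2, 11 in the fit of 16 libraries, 16 against bsh RNAi and 21 against bsh and Xbp1 RNAi. The cause of these shifts was not tested. With the replicate block the joint call of Cad89D was lost, no other joint call of a named gene was, and the joint calls among list members kept their number. Window differences that passed only with it among these 2 fits included those of Taldo, Zw, CG9485, AGBE and Tpi. They also included those of Cpr49Ae, Mur18B, Idgf1, Ilp2, Sb, CG33229, CG43110, NT5E-2, Obp56g and 6 gut genes. With 1 library left out, a lone library is assumed to vary like the others, and the counts ran from 17 to 43 (lower jointly), 1 to 7 (higher jointly), 4 to 234 (window difference), 16 to 432 and 0 to 33 (lower and higher at 10–12 hours), 9 to 86 and 4 to 127 (lower and higher at 16–18 hours) and 2 to 7 (list members). The fit without 16–18 hour control replicate 1 gave 43, 234, 432, 86 and 127 of these. The planned search of promoters for a motif was not run. With 2 libraries per group, on simulated counts 17 of 100 2-fold window differences were found. In the data, log2 window differences of 2.716 for CG9686 (SE 0.3666) and 2.155 for CG16713 (SE 0.3201) did not pass. Their adjusted p in the edgeR fit was 0.151 and 0.181. The simulation changed 100 genes at each fold, so its recovery sets no detection limit for these data.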
